A study of Homo sapiens with 5 samples.

Results

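Distal sites where BRG1, ACTL6A and NRF2 peaks overlapped were collected from CUT&Tag peak lists of SNU638, an established human gastric cancer cell line. A site was a BRG1 peak lying more than 1 kb from the 5′ end of every protein-coding transcript of GENCODE release 44, sharing at least 1 bp with an ACTL6A peak and with an NRF2 peak, and sharing no base with the larger IgG list. Of 48793 BRG1 peaks, 33304 were distal and free of IgG signal by this rule, and 754 of them (2.26%) were sites. The study profiled this 1 line, with no treatment or genetic change named in the labels, in 5 CUT&Tag libraries, 1 each with anti-BRG1, anti-ACTL6A and anti-NRF2 and 2 with IgG, named IgG 1 and IgG 2 here. In CUT&Tag, Tn5 transposase joined to protein A docks on the antibody and cuts adapters into the DNA nearby. No antibody was replicated, so no difference between libraries could be set against replicate error. The ACTL6A list held 23917 peaks and the NRF2 list 9045, against 11 for IgG 1 and 1746 for IgG 2. None of the sites (0 of 754) overlapped an IgG 1 peak. As a check of the cell type, BRG1 peaks lay within 1 kb of the starts of EPCAM, KRT8, KRT18, KRT19 and CDH1 but not CLDN4, while among markers of blood, astroglia, muscle and liver 2 of 7 genes (SPI1 and GFAP) had 1 BRG1 peak each.

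BRG1 is the ATPase that drives the BAF (SWI/SNF) remodelling complex, which slides and evicts nucleosomes, and ACTL6A is an actin-related subunit of the same complex. NRF2 is the transcription factor of the oxidative stress response. With a small MAF protein as its partner it binds antioxidant response elements (AREs), which have the core TGACNNNGC. The AP-1 element, TGACTCA, is bound by FOS and JUN dimers, and TGACTCAGC satisfies both patterns. Enhancers of epithelial cells often carry AP-1 elements, and BAF complexes are found at many of them.

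The sites below were chosen to show the sequences on which the motif results turn. The MRTFA and HMGA1 sites are among the 3 of highest NRF2 peaks with TGACTCAGC, the next 3 are those of highest NRF2 peaks with another ARE core, the JUN and MET sites carry an AP-1 element near a gene named further on, and the last is the site with the highest BRG1 peak. Each window is 201 bp of GRCh38 (hg38), plus strand, centred on the BRG1 summit. Capitals mark matches to the AP-1 element or the ARE core on either strand, and the U2 site of the highest BRG1 peak has neither.
MRTFA upstream site, chr22:40651971-40652171: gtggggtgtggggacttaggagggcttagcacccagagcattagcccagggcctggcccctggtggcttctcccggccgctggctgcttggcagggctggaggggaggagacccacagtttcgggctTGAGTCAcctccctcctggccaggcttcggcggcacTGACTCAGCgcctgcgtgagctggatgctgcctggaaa
HMGA1 intron site, chr6:34244613-34244813: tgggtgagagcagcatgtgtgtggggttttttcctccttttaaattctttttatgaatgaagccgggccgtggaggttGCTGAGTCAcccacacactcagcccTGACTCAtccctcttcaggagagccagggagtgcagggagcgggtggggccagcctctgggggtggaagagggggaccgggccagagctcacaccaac
LINC02018 site, chr3:75435275-75435475: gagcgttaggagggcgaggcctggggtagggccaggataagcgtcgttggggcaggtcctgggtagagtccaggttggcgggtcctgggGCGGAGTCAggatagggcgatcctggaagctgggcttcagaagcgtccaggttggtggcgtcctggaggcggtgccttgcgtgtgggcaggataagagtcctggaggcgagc
GLDC upstream site, chr9:6681212-6681412: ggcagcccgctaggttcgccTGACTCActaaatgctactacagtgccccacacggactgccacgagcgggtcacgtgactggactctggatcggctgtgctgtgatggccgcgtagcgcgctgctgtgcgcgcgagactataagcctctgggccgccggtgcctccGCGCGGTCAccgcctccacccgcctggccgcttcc
U2 array site with an ARE core, chr17:43278632-43278832: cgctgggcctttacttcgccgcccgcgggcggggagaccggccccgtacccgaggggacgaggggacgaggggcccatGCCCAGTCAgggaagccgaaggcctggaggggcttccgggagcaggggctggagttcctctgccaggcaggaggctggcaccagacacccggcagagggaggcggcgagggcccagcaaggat
JUN upstream site, chr1:58848912-58849112: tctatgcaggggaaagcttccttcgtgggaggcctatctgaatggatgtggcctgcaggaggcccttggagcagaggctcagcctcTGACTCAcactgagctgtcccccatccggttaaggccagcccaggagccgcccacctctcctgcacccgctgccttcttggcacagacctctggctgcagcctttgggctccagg
MET upstream site, chr7:116630969-116631169: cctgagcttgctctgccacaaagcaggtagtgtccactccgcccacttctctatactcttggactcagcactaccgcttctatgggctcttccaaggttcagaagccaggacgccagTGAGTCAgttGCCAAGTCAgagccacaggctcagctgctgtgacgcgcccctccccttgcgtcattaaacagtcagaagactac
U2 site of the highest BRG1 peak, chr17:43246547-43246747: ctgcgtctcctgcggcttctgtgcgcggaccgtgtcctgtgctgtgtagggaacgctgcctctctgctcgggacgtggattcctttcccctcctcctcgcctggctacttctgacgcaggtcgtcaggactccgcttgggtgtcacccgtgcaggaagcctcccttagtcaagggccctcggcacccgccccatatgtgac

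In the MRTFA window the minus strand also carried a TGACTCA, so that the composite element and a separate AP-1 element lay in the same 201 bp, and the HMGA1 window was arranged likewise, with its composite element 18 bp from the BRG1 summit. The ARE core of the LINC02018 window read TGACTCCGC on the minus strand, 7 bp from the summit. In the U2 array window the core read TGACTGGGC, 18 bp from the summit. The GLDC window had an AP-1 element and a separate ARE core reading TGACCGCGC. The AP-1 element of the JUN window lay 11 bp from the summit. In the MET window an AP-1 element at 20 bp and an ARE core reading TGACTTGGC at 31 bp lay side by side.

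Peak height chose the sites and is given as a description. The deposited fold enrichment and p-value of each peak were used to recover how many sequenced fragments covered the summit. At the 754 sites the BRG1 library had a median of 34 fragments (quartiles 20 and 54, range 3 to 485) where a median of 2.36 was expected by the peak caller. The median of all 33304 distal BRG1 peaks was 8 fragments. ACTL6A had a median of 12 fragments at the sites (quartiles 8 and 17, range 3 to 123) with 0.797 expected, and NRF2 had 20 (quartiles 15 and 27.75, range 9 to 282) with 3.47 expected. The sites thus included tall BRG1 peaks as well as peaks resting on 3 fragments. The BRG1 peaks were broad, with a median width of 539.5 bp against 201 bp over all distal BRG1 peaks. Distal peaks shared with ACTL6A alone had a median of 15 BRG1 fragments, those shared with NRF2 alone 13 and those shared with neither 7, while promoter peaks shared with both had 33. BRG1 height therefore moved with the sets compared below, and values limited to tall BRG1 peaks (−log10 q of at least 20) are given below for noncoding starts, genes, CpG-rich windows and the AP-1, ARE, ETS and CTCF motifs.

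The 3 summits lay close together, as an overlap rule favours. The median distance was 65 bp between the BRG1 and ACTL6A summits (quartiles 23.25 and 150 bp), 130.5 bp between BRG1 and NRF2 (quartiles 47 and 260.75 bp) and 134 bp between ACTL6A and NRF2. All 3 summits fell within 100 bp at 205 sites and within 200 bp at 383. Across the 754 sites the Spearman rank correlation of fragments was 0.653 for BRG1 with ACTL6A, 0.422 for BRG1 with NRF2 and 0.451 for ACTL6A with NRF2. These are descriptions across sites of single libraries, which share the genome's copy number and mappability. The sites were covered by 780 ACTL6A and 732 NRF2 peaks, since neighbouring sites could lie under 1 NRF2 peak.

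**Figure D1:**
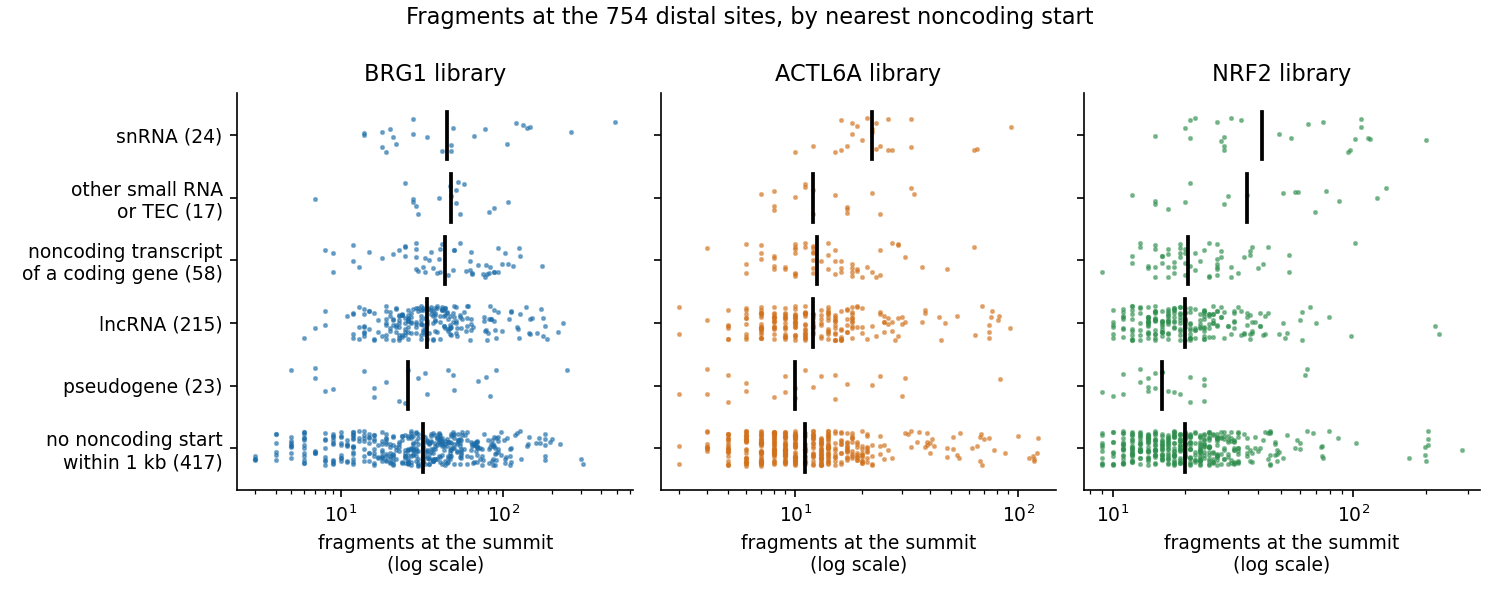
Fragments at the summit (horizontal axis, log scale) in the BRG1, ACTL6A and NRF2 libraries for each of the 754 sites, grouped by the class of noncoding transcript start within 1 kb; points are sites, black bars are medians and the number of sites is in parentheses. The 24 sites at snRNA starts had medians of 45 BRG1, 22 ACTL6A and 41.5 NRF2 fragments, and the 417 sites away from noncoding starts had 32, 11 and 20.

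Although none of the sites lay near a protein-coding start, 337 of 754 (44.7%, Wilson 95% interval 41.2% to 48.3%) lay within 1 kb of the start of a noncoding transcript, against 16.9% of all distal BRG1 peaks. Noncoding here means any transcript whose GENCODE type is other than protein-coding. It thus takes in transcripts of other types from coding genes, and an annotated reading frame was not looked for. The share was 19.9% of distal peaks shared with ACTL6A alone, a difference of 24.8 percentage points (Newcombe 95% interval 21.1 to 28.6), and 35.3% of those shared with NRF2 alone, a difference of 9.41 points (4.23 to 14.5). With peaks shared with IgG 2 kept, the last difference was 4.28 points (−0.47 to 8.96). Wilson and Newcombe intervals treat sites as independent and cover counting error only. Among BRG1 peaks with a −log10 q of at least 20, the share was 50.4% at the sites, 21.8% with ACTL6A alone and 51.1% with NRF2 alone, so the difference from the NRF2 set was −0.70 points (−11.7 to 10.3). The tall sites thus lay at noncoding starts more often than tall peaks with ACTL6A alone, and no difference from tall peaks with NRF2 was detectable at this number of peaks.

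Long noncoding RNA starts made up the largest class, with 215 sites (28.5%), against 6.78% of all distal BRG1 peaks. The difference was 18.8 points from the ACTL6A set (15.6 to 22.3) and 9.84 points from the NRF2 set (5.37 to 14.2). Among tall BRG1 peaks these were 20.5 points (15.7 to 25.5) and 9.28 points (−1.16 to 18.0). Examples among the tallest BRG1 peaks were FAM86C2P on chromosome 11 (chr11:67805314-67806210), with 231 BRG1, 81 ACTL6A and 44 NRF2 fragments, and ENSG00000286895 on chromosome 12 (chr12:8242980-8243871), with 217, 92 and 98. The 3 summits of the latter lay within 1 bp. Noncoding transcripts of protein-coding genes gave a further 58 sites (7.69%, against 6.43% of all distal BRG1 peaks), and the interval of the difference included 0 for the ACTL6A set (−0.68 to 3.40) and the NRF2 set (−1.74 to 3.76). The 58 included the CELF5 site on chromosome 19 (chr19:3284954-3285951), in an intron of that gene and 192 bp from the start, with 173, 63 and 44 fragments. Pseudogene starts gave 23 sites (3.05%, against 2.3% of all distal BRG1 peaks), including FAM86GP (chr11:3422543-3423393) with 246, 83 and 64 fragments. The pseudogene share differed from the ACTL6A set by 1.09 points with an interval from −0.01 to 2.62. From the NRF2 set, which had 4.27%, it differed by −1.22 points (−3.35 to 0.77).

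Small nuclear RNAs form the spliceosome and are transcribed from short, repeated genes. Their starts held 24 sites (3.18%), against 0.336% of all distal BRG1 peaks and 0.507% of the ACTL6A set, a difference of 2.68 points (1.61 to 4.20). The NRF2 set had 3.01%, a difference of 0.18 points (−1.76 to 2.03). Among tall BRG1 peaks, 2.91% of the sites and 10.6% of the NRF2 set lay at snRNA starts, a difference of −7.73 points (−15.7 to −2.53). By gene name, 13 of the 24 sites belonged to U1, the snRNA that recognises the 5′ splice site, and 6 to U2, which recognises the intron branch point. The U1 sites comprised 5 at RNU1-1, RNU1-2, RNU1-3 and RNU1-4, 6 at variant U1 genes such as RNVU1-7 and 2 at the pseudogenes RNU1-27P and RNU1-28P. They had 14 to 120 BRG1, 16 to 63 ACTL6A and 15 to 107 NRF2 fragments. The 5 at RNU1-1 to RNU1-4 had 55 to 107 NRF2 fragments and the 6 at variant genes 15 to 29. A pair of RNU1-3 sites shared 1 NRF2 peak, with 107 fragments, and had 48 and 120 BRG1 fragments. The U2 sites lay in a tandem array inside introns of CCDC200 on chromosome 17. The site of the highest BRG1 peak (chr17:43245892-43246820) lay 28 bp from a U2 start and had 485 BRG1 fragments against 32.9 expected, 93 ACTL6A and 200 NRF2. The other 5 U2 sites had 105 to 259 BRG1, 21 to 65 ACTL6A and 65 to 117 NRF2 fragments. All 6 were therefore above the median of the sites in each library. Starts of other small RNAs included SNORD3A, SNORD3B-1 and SNORD3B-2, which encode the U3 small nucleolar RNA of ribosomal RNA processing, with 40 to 57 BRG1 and 69 to 87 NRF2 fragments, and the vault RNA genes VTRNA1-2 and VTRNA1-3, with 48 and 25 BRG1 and 15 NRF2 fragments each.

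Sequences with copies elsewhere in the genome were common at these genes. At 178 sites (23.6%, 20.7% to 26.8%) at least 50% of the 31-base words of the window occurred elsewhere, against 16.9% of the ACTL6A set and 24.5% of the NRF2 set. This share was not computed over all distal BRG1 peaks. The share was 17 of 24 (70.8%) at snRNA starts, 18.1% at lncRNA starts and 24.7% away from noncoding starts. The authors called peaks on uniquely mapped reads, and which copy a fragment came from could not be checked here. With such sites left out, the difference in noncoding starts was 25.8 points from the ACTL6A set and 11.9 from the NRF2 set.

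**Figure D2:**
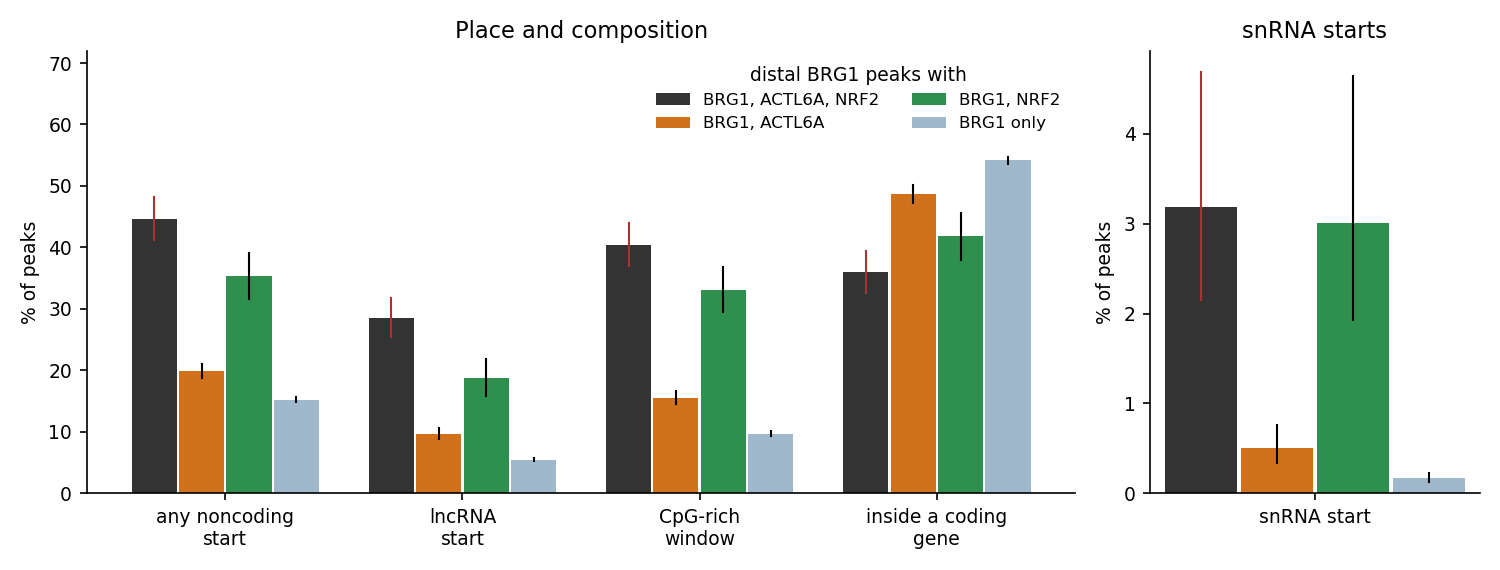
Share of distal BRG1 peaks (vertical axes, percent) at noncoding starts, at lncRNA starts, in CpG-rich windows, inside protein-coding genes and at snRNA starts, for the 754 sites (black), peaks shared with ACTL6A alone (orange), with NRF2 alone (green) and with neither (blue); lines are Wilson 95% intervals. The sites were highest in noncoding starts (44.7%) and CpG-rich windows (40.5%) and lowest in protein-coding genes (35.9%).

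Fewer of the sites lay inside protein-coding genes, 271 of 754 (35.9%, 32.6% to 39.4%), than the 52.8% of all distal BRG1 peaks. The differences were −12.7 points from the ACTL6A set (−16.4 to −8.92) and −5.83 from the NRF2 set (−11.0 to −0.68). Among tall BRG1 peaks they were −11.1 points (−16.5 to −5.52) and −4.59 points (−15.6 to 5.90). Introns held 244 of the 271, UTR exons 12 and coding exons 15, a description that is not set against all distal BRG1 peaks here. The intron of AHNAK (chr11:62553259-62554282), a large scaffold protein, held 1 of the tallest sites, with 223 BRG1, 24 ACTL6A and 68 NRF2 fragments and its 3 summits within 4 bp. Introns at the RAS GTPase-activating genes RASA4B and RASA4 on chromosome 7 held sites with 309 and 298 BRG1, 117 and 123 ACTL6A and 44 and 32 NRF2 fragments. The windows of these paralogs were alike at 201 of 201 bases, so the division of fragments between them is uncertain. Within 10 kb of a protein-coding start lay 32.1% of the sites (28.9% to 35.5%), against 31.1% of all distal BRG1 peaks, with intervals of the difference that included 0 for the ACTL6A set (−3.27 to 3.91) and the NRF2 set (−7.70 to 2.26). The median distance to a protein-coding start was 19756 bp.

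CpG islands, windows with many CpG dinucleotides, mark many promoters. A CpG-rich window, here a GC content over 50% with an observed to expected CpG ratio over 0.6, was found at 305 sites (40.5%, 37.0% to 44.0%), against 11.6% of all distal BRG1 peaks, 15.5% of the ACTL6A set and 33.1% of the NRF2 set. The difference was 25.0 points from the ACTL6A set (21.4 to 28.7) and 7.38 from the NRF2 set (2.28 to 12.4), the latter 4.40 points (−0.31 to 9.04) with peaks shared with IgG 2 kept. It was 25.6 points from the ACTL6A set and −11.7 from the NRF2 set (−22.5 to −0.58) among tall BRG1 peaks, where the direction against the NRF2 set turned. The median CpG ratio was 0.505 at the sites, between 0.265 over all distal BRG1 peaks and 0.799 at promoter peaks shared with both proteins. Sites at noncoding starts were CpG-rich in 61.1% and those away from them in 23.7%.

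The AP-1 element was found within 100 bp of the BRG1 summit at 128 sites (17.0%, 14.5% to 19.8%), against 4.18% of windows 1 kb to each side, a difference of 12.8 points (10.0 to 15.8). That interval treats the summit and flank windows as independent, although they come from the same sites. All distal BRG1 peaks had 14.3%. The share was 19.1% in the ACTL6A set, a difference of −2.13 points whose interval, −4.89 to 0.93, included 0, and 11.2% in the NRF2 set, a difference of 5.74 points (2.06 to 9.36). The interval of this last difference took in 0 with peaks shared with IgG 2 kept (3.08 points, −0.16 to 6.20), within 50 bp of the BRG1 summit (2.83 points, −0.16 to 5.76) and around the NRF2 summit (2.67 points, −0.33 to 5.61). Only 2.67% of promoter peaks shared with both proteins had the element. Height of the BRG1 peak moved with these shares. Among peaks with a −log10 q of at least 20, the element was found at 22.3% of the sites, 35.6% of the ACTL6A set, 20.2% of the NRF2 set and 45.5% of peaks shared with neither, so that the sites were lower than the ACTL6A set by a difference of −13.3 points (−18.0 to −8.23) while the difference from the NRF2 set was 2.06 points with an interval that included 0 (−7.88 to 10.1). Below that height the shares were 10.6%, 13.9%, 9.67% and 12.7%. Tall distal BRG1 peaks without NRF2 thus carried the AP-1 element more often than tall sites.

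Position split the sites in the same respect. Away from noncoding starts 21.8% had an AP-1 element and at noncoding starts 11.0%, a difference of 10.8 points (5.55 to 16.0). Away from those starts the ACTL6A set had 20.7%, the NRF2 set 14.9% and peaks shared with neither 14.2%. The sites with the element had a median of 42.5 BRG1, 11 ACTL6A and 20 NRF2 fragments, and those without it had 32, 12 and 20. Matches also depended on the summit used. Within 25 bp they were found at 4.91% of BRG1, 6.23% of ACTL6A and 3.05% of NRF2 summits, and within 100 bp at 17.0%, 15.1% and 9.95%.

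The ARE core was found at 113 sites (15.0%, 12.6% to 17.7%), against 7.36% of the flanking windows, a difference of 7.63 points, and 12.1% of all distal BRG1 peaks. The ACTL6A set had 12.8% (difference 2.23 points, −0.34 to 5.11), the NRF2 set 12.0% (2.96 points, −0.68 to 6.53) and promoter peaks shared with both proteins 12.1%. Peaks shared with neither had 11.9%, a difference of 3.11 points (0.70 to 5.86). Away from noncoding starts the difference was 3.40 points from the ACTL6A set (0.02 to 7.35) and 4.58 from the NRF2 set (−0.10 to 9.26). Among tall BRG1 peaks the share was 16.9% at the sites, 16.1% in the ACTL6A set, 17.0% in the NRF2 set and 16.9% of peaks shared with neither, and each interval of the difference included 0. With peaks shared with IgG 2 kept, the difference from the ACTL6A set was −0.12 points (−2.32 to 2.32) and the interval from the NRF2 set was −1.94 to 4.42. Within 100 bp of the NRF2 summit the share was 13.0%, and within 25 bp it was 4.51%, against 3.98% of BRG1 summits. The most frequent form of the core was TGACTCAGC, with 35 of the matches, which lay in 25 sites (3.32%), against 1.7% of all distal BRG1 peaks, 2.53% of the ACTL6A set, 1.90% of the NRF2 set and 0.265% of the flanks. The next form, TGACTGGGC, had 9 matches. In all, 198 sites had an AP-1 element or an ARE core, 22 had both an AP-1 element and an ARE core other than TGACTCAGC, and 556 had neither. These combined counts are not set against all distal BRG1 peaks here, so they do not mark the sites off from other peaks.

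Other motifs gave smaller counts. The ETS motif CCGGAAG, common at housekeeping promoters, was found at 43 sites (5.70%), against 1.63% of all distal BRG1 peaks and 2.14% of the ACTL6A set, a difference of 3.57 points (2.05 to 5.49). It was at 4.43% of the NRF2 set and 11.9% of promoter peaks shared with both proteins. Among tall BRG1 peaks it was at 6.05% of the sites, 1.83% of the ACTL6A set, a difference of 4.22 points (2.07 to 7.03), and 8.51% of the NRF2 set. The cyclic AMP element TGACGTCA was at 10 sites (1.33%, against 0.336% of all distal BRG1 peaks), higher than the ACTL6A set by 0.93 points (0.28 to 2.04). The core of CTCF, the insulator protein, was at 12 sites (1.59%, against 2.38% of all distal BRG1 peaks and 4.30% of the ACTL6A set), a difference from the ACTL6A set of −2.70 points (−3.63 to −1.41), and of −2.29 points (−3.58 to −0.66) among tall peaks. The GATA motif AGATAA was at 12 sites (1.59%, against 4.41%), lower than the ACTL6A set by a difference of −2.64 points (−3.56 to −1.35) and also below the sites' own flanks (7.63%). The NRF2 set had 0.949% for the cyclic AMP element, 1.11% for CTCF and 2.37% for GATA. The interval of each difference from that set included 0 (−0.88 to 1.59, −0.86 to 1.79 and −2.43 to 0.71). Promoter peaks shared with both proteins had the cyclic AMP element at 1.89%. FOX (TGTTTAC) was at 1.59% of the sites and 3.06% of the ACTL6A set, a difference of −1.47 points (−2.34 to −0.21). The NRF2 set had 1.11% and peaks shared with neither 2.30%, and both intervals of the difference included 0. RUNX (AACCACA) was at 2.25% of the sites and SOX (ACAAAGG) at 2.39%. For both, the intervals from the ACTL6A set, the NRF2 set and peaks shared with neither included 0. TEAD (GGAATGT) was at 2.92% of the sites and 3.42% of all distal BRG1 peaks, KLF (CCACACCC) at 3.45% and 3.54% and the E-box CAGCTG at 14.2% and 16.5%, and for each the interval of the difference from the ACTL6A set, the NRF2 set and peaks shared with neither included 0. The motifs of HNF4, HNF1, GRHL, CEBP and NFI were at 0 of 754 sites, which allows a share of up to 0.398%. That bound is 3 of 754 (the rule of 3) and not a Wilson limit. Over all distal BRG1 peaks they were at 0.249%, 0.003%, 0.033%, 0.027% and 0.00901%, so no difference was detectable at this number of sites. A match is a run of letters and not a measured binding site.

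**Figure D3:**
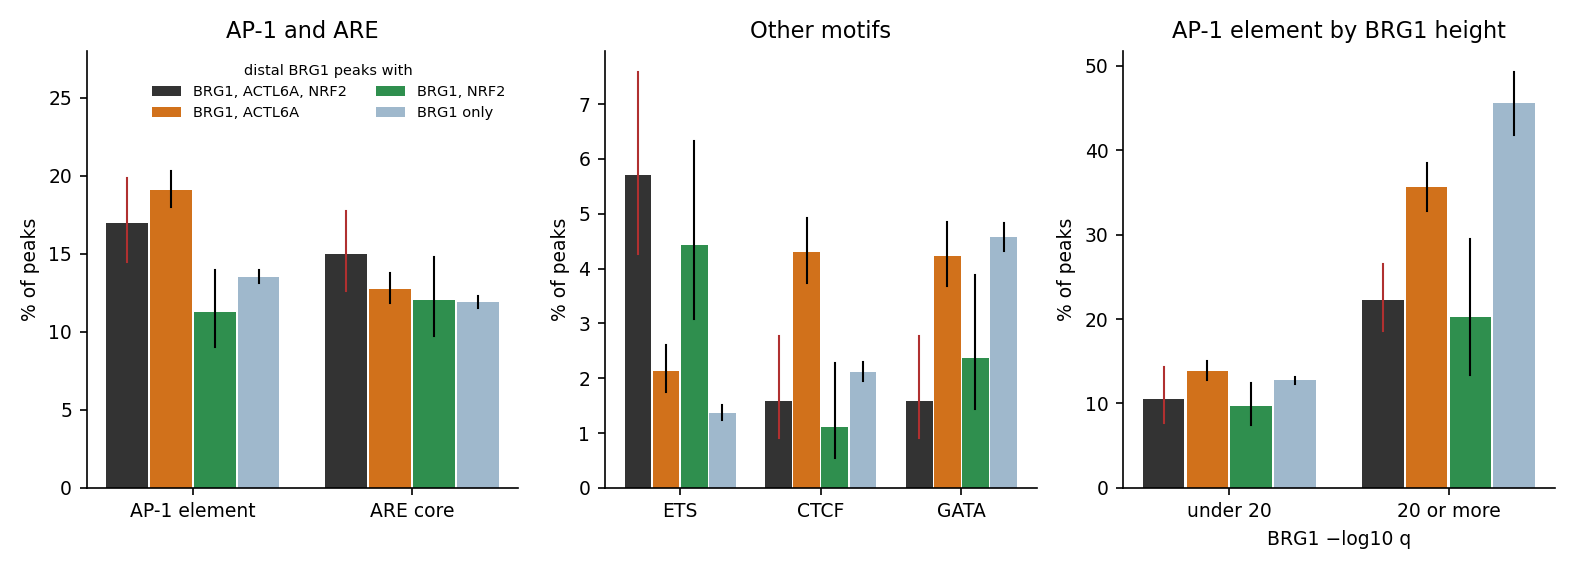
Share of distal BRG1 peaks (vertical axes, percent) with a motif within 100 bp of the BRG1 summit, for the 754 sites (black), peaks shared with ACTL6A alone (orange), NRF2 alone (green) and neither (blue), with Wilson 95% intervals; the right panel splits the AP-1 element by BRG1 −log10 q. At a −log10 q of 20 or more the sites had the element in 22.3%, against 35.6% with ACTL6A alone and 45.5% with neither.

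The sites were next set against 7 lists of genes, by the nearest protein-coding start within 100 kb, which 632 sites had. Of 24 NRF2 target genes of glutathione, iron and redox metabolism, 0 had a site, which by the rule of 3 allows up to 0.398% of the sites. Over all distal BRG1 peaks, 52 (0.156%) lay nearest to 18 of these genes. The other lists had few sites each. The AP-1, CNC and small MAF factors had 3 (0.398%, against 0.168% of all distal BRG1 peaks), the gut lineage factors 1 (HNF4G, against 0.135%), the YAP and TEAD pathway 1 (against 0.183%), the epithelial adhesion and keratin genes 6 (0.796%, against 0.288%), the gastric cancer oncogenes 2 (0.265%, against 0.186%) and the BAF subunits 2 (against 0.165%). The counts were small, and whether any list differed from the background was not tested.

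Among the AP-1 partners, JUN, a subunit of the dimer itself, had a site 64965 bp upstream (chr1:58848723-58849118) with 45 BRG1, 12 ACTL6A and 21 NRF2 fragments. FOSL1, a FOS-family subunit, had a site 2646 bp upstream (chr11:65903006-65903510) with 52, 10 and 33. MAFK, a small MAF partner of NRF2, had an intronic site (chr7:1533216-1533418) with 29, 8 and 21, without an AP-1 element or an ARE core. Of the adhesion genes, ITGB1, the integrin beta 1 chain, had a pair of sites, both with an AP-1 element, with 88 BRG1, 19 ACTL6A and 32 NRF2 fragments in its intron (chr10:32980499-32980930) and 29, 7 and 20 upstream (chr10:33005717-33006110). KRT20, a keratin of gut epithelium, had a site 18495 bp upstream with 69, 7 and 10 fragments, and EPCAM a site 21967 bp upstream with 18, 7 and 14. HNF4G, a gut lineage factor, had a site 83635 bp upstream with 7, 4 and 10 fragments. CCN1, a target of YAP and TEAD, had 1 site 26564 bp downstream (chr1:85607000-85607570), with 109, 19 and 17 fragments and all 3 summits on the same base. The oncogene CCNE1, cyclin E1, had a site 27752 bp downstream with 70, 14 and 26, and MET, the receptor of hepatocyte growth factor, a site 41127 bp upstream (chr7:116630941-116631217) with 21, 10 and 14. PBRM1 and ARID2, subunits of the related PBAF complex, had sites with 38, 7 and 11 and with 30, 21 and 24 fragments. Some of these sites overlapped a noncoding start. The HNF4G site overlapped the start of the lncRNA CASC9, and the ARID2 site that of the lncRNA LINC00938. The intronic ITGB1 site overlapped the start of the lncRNA ITGB1-DT, and the upstream one that of a noncoding ITGB1 transcript. Distance alone links the sites of this paragraph to the listed genes.

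Sites also lay in groups. Joined where BRG1 summits were within 20 kb, they formed 645 single sites, 42 pairs and 7 groups of 3 or more. The same counts over all distal BRG1 peaks are not given here, for groups or for genes with 2 or more sites. The grouping is therefore a description, and whether the sites group more than other distal peaks was not tested. The largest, with 6 sites over 45735 bp of chromosome 21 from 8211183 to 8256918, lay in ribosomal DNA around the 5.8S ribosomal RNA genes, with 26 to 193 BRG1, 27 to 121 ACTL6A and 125 to 218 NRF2 fragments. Expected fragments were high there, 6.93 to 62.1 in the BRG1 library and 50.8 to 120.6 in the NRF2 library, so the folds were low (1.92 to 4.06 for BRG1). A group of 3 in the same kind of sequence began at 8438427. Distal BRG1 peaks with ACTL6A and NRF2 that shared a base with IgG 2, and so were left out, lay within both groups. They included chr21:8224040-8224285 and chr21:8238320-8238754 in the larger group and chr21:8443073-8444049 in the group of 3. Of the U2 sites, 4 formed a group over 21131 bp. A group of 3 around FOSL1 and C11orf68 on chromosome 11 spanned 12589 bp, and 2 of its 3 sites had an AP-1 element. By nearest gene at any distance, 635 genes had a site and 70 had 2 or more. TPTE on chromosome 21 was nearest to 30 sites, but at distances of 1391919 to 5019190 bp. Within 100 kb, 566 genes had a site and 53 had 2 or more, led by CCDC200 with 7 and GRAP with 5. Chromosome 21 had the highest share, 33 of its 618 distal BRG1 peaks (5.34%), and chromosome 19 had 72 (3.54%).

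The tallest sites in the other libraries were partly different ones. Of the highest 5 by ACTL6A, 4 were also among the highest 10 by BRG1, and the remaining one lay 134108 bp upstream of SFSWAP (chr12:131576797-131577366), with 89 BRG1, 112 ACTL6A and 21 NRF2 fragments. The highest 5 by NRF2 were the U2 site, a 3095 bp site on chromosome 21 (chr21:6369353-6372447) with 282 NRF2, 180 BRG1 and 118 ACTL6A fragments, a site on chromosome Y with 170 NRF2 and 28 BRG1 fragments, and the RNU1-3 pair. The site 5662 bp upstream of ZNF212 (chr7:149233658-149234293) had the highest BRG1 fold, 26.5, with 168 BRG1, 40 ACTL6A and 45 NRF2 fragments and an ARE core.

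Several sites lay close to the limits of the rule. The site just beyond 1 kb, 1001 bp from a start of PLEKHH3, had a BRG1 −log10 q of 21.6 and a fold of 4.73, and the nearest excluded peak, 991 bp from a start of PLEC, had 5.07 and 2.61. The smallest overlap with an ACTL6A peak was 4 bp, near CAPZA3, where the BRG1 peak rested on 3 fragments, and the smallest with an NRF2 peak was 9 bp, in an exon of ZDHHC5. A peak near ZSCAN2 missed an NRF2 peak by 1 bp and one near CRYBA4 missed an ACTL6A peak by 1 bp. The site nearest to an IgG 2 peak, near SWAP70, was 26 bp from it.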

How the data were processed

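CUT&Tag peak lists of 5 SNU638 libraries were analysed. The authors trimmed reads with fastp 0.23.0, mapped them to hg38 with BWA and called peaks on uniquely mapped reads with MACS2 at a q-value below 0.05. The control given to the caller is not given in the sources used here. The deposited score is 10 times the −log10 q, and the deposited fold is a ratio of fragments to those expected after adding 1 to each. The deposited −log10 p and −log10 q are the caller's own.

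Overlaps, distances to GENCODE release 44 starts and motif matches on either strand in 201 bp of GRCh38 at each BRG1 summit were computed here (Python 3.11.15, pandas 2.3.3, SciPy 1.17.1, pysam 0.24.0). Fragments were recovered as the whole number giving both fold and p within 0.001 on the −log10 scale, for 99.6% of the IgG 2 peaks and a larger share of each other list, and the routines were tested on simulated data. Shares carry Wilson and differences Newcombe 95% intervals, with no p-value. Library depth is unknown from the lists, and the read numbers that the paper reports were not used here. A single library per antibody leaves no replicate spread. Expected fragments were as low as 0.271 for BRG1, 0.182 for ACTL6A and 1.48 for NRF2.

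Named sites were the highest 10 by BRG1, the highest 5 by ACTL6A and by NRF2, up to 3 genes of each list by number of sites, the 5 largest groups, the highest 3 by NRF2 for TGACTCAGC and for other ARE cores, and those at the limits of the rule; 1 of these groups and 1 of the TGACTCAGC sites are not reported here. The small RNA, pseudogene and lncRNA examples outside that rule, and the values on sequence copies and on tall BRG1 peaks other than for the AP-1 element and the ARE core, were chosen after values had been seen. The rule for the sites, the gene lists and the motifs were chosen with earlier results of these data known.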

Additional observations from a re-analysis of the deposited data

How the results depend on the processing

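Of 128 alternative values for 14 results, 89 kept their direction and stayed within the main interval or within 1.5 times the main count, 35 moved and 4 turned direction. The cause was not tested. The number of sites was 318 at a −log10 q of at least 5 in each list, 306 with an overlap of 50% of both peaks and 417 when distal from all transcript starts. Leaving out IgG 1 or IgG 2 in turn gave 754 to 952 sites, 32.4% to 35.9% inside protein-coding genes, 39.5% to 44.7% at noncoding starts, 27.1% to 32.1% within 10 kb of a protein-coding start, 13.7% to 17.0% with the AP-1 element and 12.6% to 15.0% with the ARE core. For the AP-1 difference from the ACTL6A set it gave −5.33 to −2.13 points, and for noncoding starts 19.7 to 24.8. The IgG 2 list moved each of these and the IgG 1 list none.

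The share inside genes was 30.8% when distal from 3 kb, 40.5% when distal from all starts and 39.6% without sites with like copies. The noncoding start share was 53.5% at the stricter q. The share within 10 kb was 21.5% from 3 kb and 37.3% without like copies. The AP-1 share was 21.8% away from all starts, 25.5% over whole peaks, 9.95% within 50 bp, 9.95% around the NRF2 summit and 20.3% without like copies. The ARE share was 29.7% over whole peaks, 7.96% within 50 bp and 12.2% without TGACTCAGC.

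The AP-1 difference from the ACTL6A set was −9.59 points at the stricter q, 1.12 away from all starts, 1.67 over whole peaks and −13.3 among tall peaks. From the NRF2 set it turned to −2.07 (−8.16 to 3.87) at the stricter q and was 12.5 over whole peaks. The ARE differences over whole peaks were 10.1 and 12.0 points, where the sites' peaks are also wider. The noncoding start difference was 28.6 points from the ACTL6A set among tall peaks, and from the NRF2 set 0.84 with the 50% overlap and −0.70 among tall peaks. The CpG-rich difference was 29.9 points from the ACTL6A set without like copies, and from the NRF2 set 1.79 at the stricter q, −7.71 with the 50% overlap and −11.7 among tall peaks.

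No analysis paired by replicate was possible because no antibody was replicated, and no result came from a test between replicates. The summit and flank windows are paired by site, and their differences were computed without using that pairing. Peak lists hold no reads below the calling threshold, so a distal BRG1 peak without an NRF2 or ACTL6A peak was not shown to lack the protein.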

Other observations

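A further 198 distal BRG1 peaks overlapped an ACTL6A and an NRF2 peak but also shared a base with an IgG 2 peak, and were left out of the sites. Their median −log10 q was 10.9 for BRG1, 39.5 for NRF2 and 27.1 for IgG 2. An AP-1 element lay within 100 bp of the BRG1 summit at 2 of the 198 (1.01%) and an ARE core at 7 (3.54%), and 39 (19.7%) lay within 1 kb of a noncoding start. For 8 of them the nearest noncoding gene was a 5S ribosomal RNA gene or pseudogene. The part of nonspecific signal in the sites themselves was not tested.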
